A study of Saccharomyces cerevisiae with 6 samples.

Results

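Alternative 5′ splice sites (5′SS) are positions other than the annotated one at which the upstream end of an intron is cut while its annotated 3′ splice site (3′SS) is kept. In the 6 libraries described here, 483 such sites were found among 5274 listed junctions. A site was included when its junction carried an alternative 5′SS with the annotated 3′SS, when reads overlapped it perfectly by at least 10 bp upstream and 40 bp downstream, and when at least 50% of its gapped reads had no mismatch near the junction. Of 686 listed alternative 5′SS junctions, 203 failed these filters. The sites were grouped by position, as exonic when they lay upstream of the annotated 5′SS and intronic when they lay downstream, by distance in nt (negative for exonic, positive for intronic), and by whether they began with the same 2 bases as the annotated 5′SS. None of these criteria used the difference between strains.

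All libraries came from budding yeast (*Saccharomyces cerevisiae*, background BY4741) grown to mid-log phase in rich YPD medium. The 3 *prp18Δupf1Δ* libraries carried upf1Δ::HIS3 together with prp18Δ::kanMX6, and the 3 *upf1Δ* libraries carried the *UPF1* deletion alone, which the genotype field of the labels gives as HIS3MX6. Upf1p is the helicase of nonsense-mediated mRNA decay (NMD), so both strains lack this decay pathway, and no strain with *UPF1* was used here. Whether the 3 libraries of a strain came from separate cultures is not given in the sources used here. Every p below therefore rests on library-to-library spread, which may be technical. The tables list introns, and neither deleted gene has one, so the deletions could not be checked in these data.

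In splicing, U1 snRNA and later U6 snRNA pair with the 5′SS, which in yeast most often reads GUAUGU. The 5′SS is then cut and joined to the branchpoint adenosine, and in the second step the freed exon attacks the 3′SS. Prp18p acts in that second step, after the 5′SS has been cut. Ribosomal protein genes (RPGs) hold many of the yeast introns, and several of them regulate their own splicing through the encoded protein.

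The sites that carry the largest values are given first as DNA, 5′ to 3′, with R64 coordinates of the stretch. Capitals mark the first 6 bases of the intron, and the 10 bases before them are the end of the exon that each junction defines. The first set holds the 4 sites whose use relative to the annotated site was higher in *prp18Δupf1Δ*, each after its annotated site.
RPS22B annotated (chrXII:856565-856590, plus strand): caaaagcatgGTATGTtccaactatt
RPS22B +414 (chrXII:856979-857004, plus strand): tttttatgaaGTAAGCaaaaatttcg
EFB1 annotated (chrI:142244-142269, plus strand): acattgaaggGTATGTtccgatttag
EFB1 +230 (chrI:142474-142499, plus strand): acagagcagaGTATCAttattagtta
ATG38 annotated (chrXII:564498-564523, minus strand): tttagcggaaGTAAGTttttgaatta
ATG38 -4 (chrXII:564502-564527, minus strand): gtactttagcGGAAGTaagtttttga
BET4 annotated (chrX:387420-387445, minus strand): gtcagcaatgGTATGTgcacttcaaa
BET4 -14 (chrX:387434-387459, minus strand): ctataaagcaGTAGGTcagcaatggt

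The next set holds sites with many reads or a large decrease, including pairs that overlap within one intron, as in *RPL30*, or that depart from GT, as in *SRC1* (also named *HEH1*), *RPS11A* and *SPT14*.
RPL30 annotated (chrVII:439084-439109, plus strand): cgcagagatgGTCAGTataacatgat
RPL30 +4 (chrVII:439088-439113, plus strand): gagatggtcaGTATAAcatgatttta
RPL30 +6 (chrVII:439090-439115, plus strand): gatggtcagtATAACAtgattttata
SRC1 annotated (chrXIII:211435-211460, plus strand): atggaggcaaGTGAGTacaatttatt
SRC1 -4 (chrXIII:211431-211456, plus strand): tattatggagGCAAGTgagtacaatt
RPL22A annotated (chrXII:263196-263221, plus strand): ggccccaaacGTATGAtactttaaaa
RPL22A +71 (chrXII:263267-263292, plus strand): atgattgattGTACGCgaataacaag
RPL22A +122 (chrXII:263318-263343, plus strand): aaataaaaatGTACGAaacgaagaag
RPL22B annotated (chrVI:64905-64930, minus strand): ggctccaaacGTACGTtaattttcgt
RPL22B +64 (chrVI:64841-64866, minus strand): tctttaaaaaGTTTGTctattcctac
RPS25A annotated (chrVII:534770-534795, minus strand): tagttttagtGTATGTatctataaat
RPS25A +4 (chrVII:534766-534791, minus strand): tttagtgtatGTATCTataaatttga
RPS26A annotated (chrVII:148951-148976, minus strand): gtcttaagtaGTATGTtaacgacaca
RPS26A +199 (chrVII:148752-148777, minus strand): gtcgcccatcGTATGCaatgtactta
RPL2B +246 (chrIX:317008-317033, plus strand): ggctatcaaaGTATGAgaataagcct
RPL42A +127 (chrXIV:331443-331468, plus strand): cctagcaactGTATAAtctgcgccta
RPS11A +129 (chrIV:491679-491704, plus strand): tgaattcttaGCATGTttattgttac
SPT14 annotated (chrXVI:218637-218662, plus strand): tcaatatagcGTATGTctagctcaca
SPT14 +16 (chrXVI:218653-218678, plus strand): ctagctcacaGCATGTgttccaaata

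The alternative 5′SS carried 2129, 1542 and 1405 junction reads in the *prp18Δupf1Δ* libraries, against 2495, 2809 and 3073 in the *upf1Δ* libraries. These stood beside 1250953, 900862 and 791819 reads of annotated junctions in *prp18Δupf1Δ*, against 1347936, 1427758 and 1502384 in *upf1Δ*. Reads across unspliced 5′SS and 3′SS numbered 228021, 277238 and 244968 in *prp18Δupf1Δ*, against 133436, 182046 and 185303 in *upf1Δ*. The first *prp18Δupf1Δ* library thus had the fewest unspliced and the most annotated reads of its strain. The first *upf1Δ* library also had the fewest unspliced reads of its strain, with the fewest annotated reads. Of 293 introns with any listed junction, 182 held at least 1 alternative 5′SS, and in 2 of these (in *HOP2* and *YBL111C*) no annotated junction was read.

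Most sites were rare. Of the 483, 127 rested on 1 gapped read, 179 reached 6 gapped reads over the 6 libraries, and the 10 sites with the most reads held 64.8% of the 13453 junction reads. By number, 72 introns had 1 alternative 5′SS and 3 introns had 10, those of *RPS23B*, *RPS10A* and *RPL37A*, which all encode ribosomal proteins. The sites lay in 96 of 104 RPG introns and in 84 of 177 non-RPG introns with a listed annotated junction. RPG introns were also the more deeply read, with a median of 51260 annotated reads over the 6 libraries against 2034 in non-RPG introns, and the longer, with a median of 406 nt against 96 nt. The part of depth and length in the number of sites found was not tested.

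Sequence and position. The sites ran over distances of -665 to 632 nt and clustered around the annotated 5′SS. At +4 lay 33 sites with 2625 reads, and 32 of them began as the annotated site did. A GT 4 nt downstream is part of GTATGT itself, and 93.6% of annotated sites had one. At -4 lay 20 sites with 904 reads, of which 4 began as the annotated site did. All 4 annotated introns with a GT 4 nt upstream had a site there. Another 26 sites lay at -1 and 14 at -2, none of them with the first 2 bases of the annotated site. These 40 held 0.966% of the reads, and 86.7% of their gapped reads were free of mismatches near the junction, against 98.3% over all sites. Of the 78 exonic sites with other first bases, 64 lay within 10 nt of the annotated 5′SS.

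**Figure D1:**
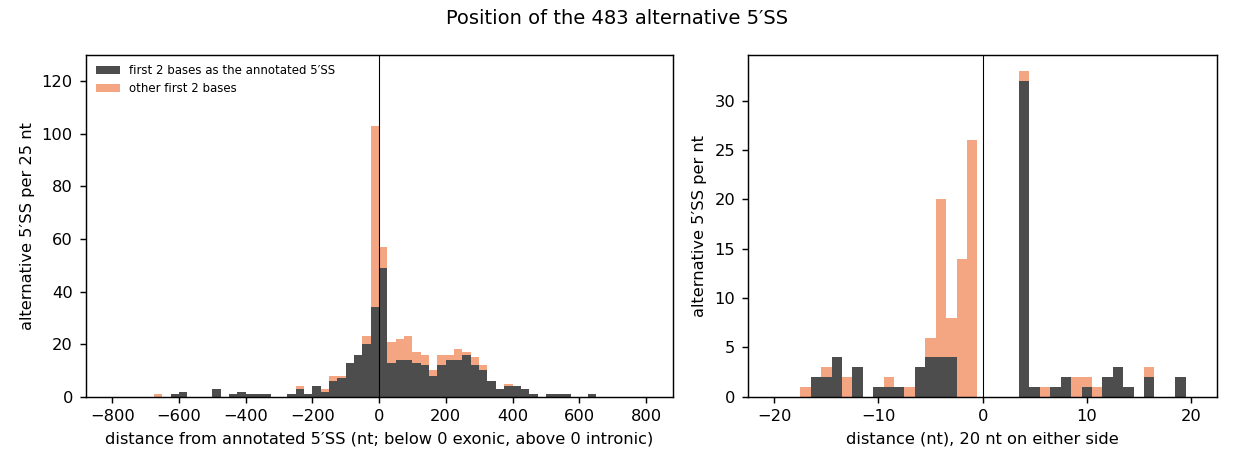
Number of alternative 5′SS by distance from the annotated 5′SS in nt, over the whole range in bins of 25 nt on the left and at single-nt steps within 20 nt on the right. Dark bars are sites that begin with the same 2 bases as the annotated 5′SS and light bars are the others; +4 stands out with 33 sites and -1 with 26.

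The alternative sites were further from the yeast consensus than annotated sites. All 6 bases GTATGT were found at 219 of 281 annotated sites but at 8 of 483 alternative sites, which together held 39 reads. G at the fifth intron base was present in 100% of annotated sites and in 48.7% of alternative sites, and T at the sixth in 93.6% and 42.0%. Junctions with ambiguous placement had been set by the authors to the 5′SS most like GUAUGU. First bases were GT at 347 sites, GC at 30, GA at 28 and GG at 26. The GC sites held 9.28% of the reads, most of them at *SRC1* -4.

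Positions more like the consensus were found more often. The placement of ambiguous junctions at the 5′SS most like GUAUGU can raise this contrast, and the shares were not recounted without such junctions. Between the annotated 5′SS and 37 nt before the branchpoint, a window set from the closest site found, the introns offered 2450 positions with the first 2 bases of their annotated site, and 9.22% of these were among the sites found. Of the 115 positions with such first bases and 5 of 6 matches to GTATGT, 45.2% were found, against 0.134% of the 44865 positions with other first bases. In the 200 nt of sequence upstream of the annotated sites these shares were 3.81% of 2678, 16.6% of 151 and 0.142% of 53522 positions. The share of GTATGT-like positions found was higher inside introns than in upstream sequence, and no test was made over positions. The 200 nt were taken at every intron without a check that they are transcribed. Positions that cannot be spliced may therefore lower the upstream shares.

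Few of the resulting mRNAs keep the reading frame. In 26 of the 483 sites the frame was kept without a stop codon in the added sequence, 278 shifted it and 58 added an in-frame stop. Another 71 exonic sites removed the start codon or a whole coding exon, and 50 lay in introns that do not separate coding exons. The frame-keeping sites held 315 of the 13453 reads, 119 of them at *RPL30* +6.

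Relative to all annotated junction reads, alternative 5′SS had fewer reads without Prp18p in most groups of sites, apart from single sites with many reads. Annotated reads were summed over all introns, or over a class where said, and not over the introns of the sites. A change in expression of the genes can thus move these values without a change in splice site use, and this was not tested. Per 1000 annotated junction reads, all alternative 5′SS together had 1.73 ± 0.0393 reads in *prp18Δupf1Δ* and 1.95 ± 0.0979 reads in *upf1Δ* (SD, n = 3 each). A single site, *RPS22B* +414, made up 21.6% of all reads. Without it the values were 0.975 ± 0.0322 in *prp18Δupf1Δ* and 1.79 ± 0.0851 in *upf1Δ*, a ratio of 0.544. In both sums every *prp18Δupf1Δ* library lay below every *upf1Δ* library (p = 0.1 by a two-sided exact permutation test, and 3 libraries against 3 cannot give a smaller p). Of the 483 sites, 260 had junction reads only in *upf1Δ* and 40 only in *prp18Δupf1Δ*. Many sites thus entered these sums and those of the groups below through their *upf1Δ* reads alone.

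The groups changed by different amounts. Intronic sites with other first bases had 23, 27 and 17 reads in *prp18Δupf1Δ*, against 173, 172 and 227 in *upf1Δ*, or 0.175 times the level per 1000 annotated reads. Of these 60 sites, 44 were read only in *upf1Δ* and 6 only in *prp18Δupf1Δ*. Intronic sites with the same first bases, without *RPS22B* +414, stood at 0.525 times and exonic sites at 0.759 times (exact permutation p = 0.1 in each). With *RPS22B* +414 included, the intronic sites with the same first bases had 1.44 ± 0.0459 reads per 1000 in *prp18Δupf1Δ* and 1.47 ± 0.0818 in *upf1Δ*, with overlapping libraries (exact permutation p = 0.6). Intronic sites were also summed by distance, with no test between the distance groups. Sites at 11–50 nt stood at 0.199 times, at 51–200 nt at 0.303 times, and beyond 200 nt, without *RPS22B* +414, at 0.266 times, with no overlap between strains. Without *SPT14* +16, the site with the most reads at 11–50 nt, that group stood at 0.303 times. Without *RPL22A* +122, the sites at 51–200 nt stood at 0.246 times, and neither group overlapped between strains. Sites at 1–10 nt had 0.405 ± 0.0410 reads per 1000 in *prp18Δupf1Δ* and 0.369 ± 0.0320 in *upf1Δ*, which overlapped (exact permutation p = 0.4). Without *RPS25A* +4, which held most of their reads, these nearest sites stood at 0.775 times, with no overlap.

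**Figure D2:**
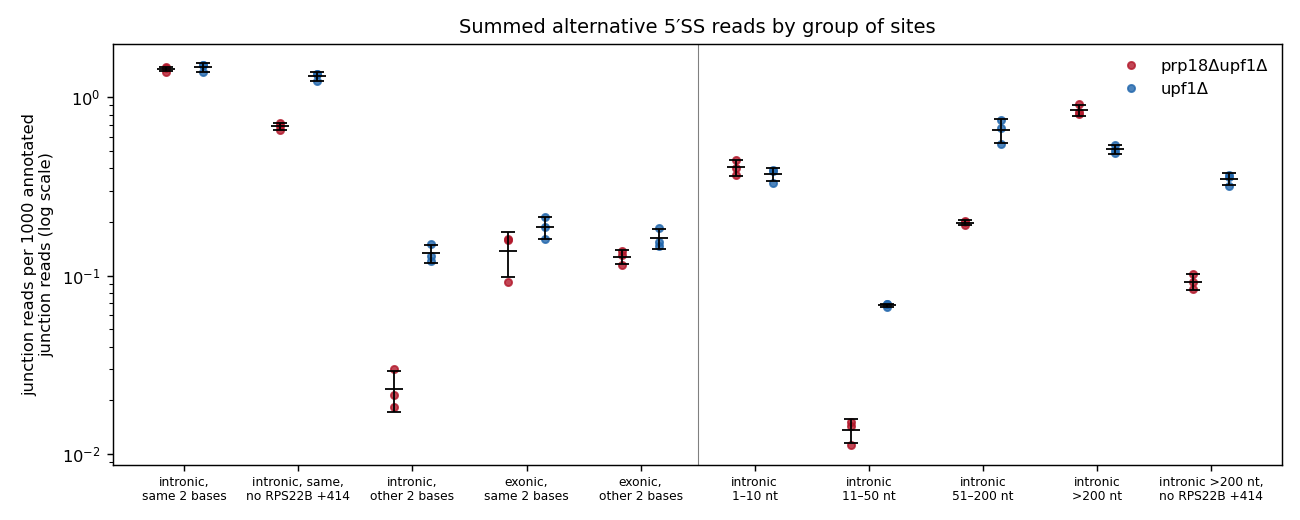
Summed junction reads of groups of alternative 5′SS per 1000 annotated junction reads, on a log scale, with points for the 3 libraries of each strain and bars for the mean and SD. The intronic sites beyond 200 nt stood above *upf1Δ* in *prp18Δupf1Δ* with *RPS22B* +414 and at 0.266 times the *upf1Δ* level without it.

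Whether groups changed unequally was tested on ratios per library. Exonic over intronic reads, without *RPS22B* +414, came to 0.314, 0.406 and 0.406 in *prp18Δupf1Δ* and to 0.254, 0.228 and 0.246 in *upf1Δ* (exact permutation p = 0.1). With that site included the ratios were 0.156, 0.206 and 0.183 in *prp18Δupf1Δ* and 0.229, 0.205 and 0.220 in *upf1Δ*, and they overlapped (exact permutation p = 0.2). Reads at sites with over sites without the first 2 bases of the annotated site came to 10.5 ± 1.30 in *prp18Δupf1Δ* and to 5.66 ± 0.731 in *upf1Δ* (SD, exact permutation p = 0.1). Without *RPS22B* +414 they came to 5.18, 5.28 and 5.96 in *prp18Δupf1Δ* and to 4.43, 5.75 and 5.11 in *upf1Δ* (exact permutation p = 0.4). Both ratios thus turned on that site.

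Per 1000 annotated reads of their own class, RPG sites had 1.67 ± 0.0327 reads in *prp18Δupf1Δ* and 1.85 ± 0.112 in *upf1Δ*, and non-RPG sites had 2.07 ± 0.225 in *prp18Δupf1Δ* and 2.62 ± 0.0247 in *upf1Δ* (SD, n = 3 each). Each class was then summed without its site with the most reads. RPG sites without *RPS22B* +414 had 0.801 ± 0.0559 in *prp18Δupf1Δ* and 1.66 ± 0.0976 in *upf1Δ*, and non-RPG sites without *SRC1* -4 had 1.46 ± 0.359 in *prp18Δupf1Δ* and 1.92 ± 0.137 in *upf1Δ*. RPG reads were mainly intronic and non-RPG reads mainly exonic. In non-RPGs the exonic over intronic ratio was 2.81, 2.83 and 2.54 in *prp18Δupf1Δ*, against 1.95, 2.20 and 2.10 in *upf1Δ*, with no overlap (exact permutation p = 0.1). Without *SRC1* -4 it was 1.23, 1.79 and 1.77 in *prp18Δupf1Δ* and 0.976, 1.48 and 1.33 in *upf1Δ*, and overlapped (exact permutation p = 0.3). In RPGs the ratio was 0.0424 ± 0.00826 in *prp18Δupf1Δ* and 0.0717 ± 0.0126 in *upf1Δ* (exact permutation p = 0.1), and without *RPS22B* +414 it was 0.0923 ± 0.0115 in *prp18Δupf1Δ* and 0.0806 ± 0.0143 in *upf1Δ* and overlapped (exact permutation p = 0.4). In both classes the call of no overlap thus ended without 1 site.

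The 179 sites with at least 6 gapped reads were tested one by one. FAnS, the reads of a junction relative to those of the annotated junction of its intron, was compared between strains by edgeR's quasi-likelihood test on both counts, fitted over all 884 alternative junctions (5′, 3′ and both). FAnS was lower in *prp18Δupf1Δ* at 47 of the 179 and higher at 4 (adjusted p under 0.05), where 10.7% of all alternative junctions were called lower and 21% higher. The median log2 change was -1.52 at alternative 5′SS, 0.90 at the 562 alternative 3′SS and 0.02 at the 143 junctions with both ends alternative. Of the 179, 41 had no read in *prp18Δupf1Δ* and none had reads only there, so many sites entered the test through their *upf1Δ* reads. DESeq2 called 25 lower and 2 higher, and edgeR with TMM scaling 93 and 2. With no minimum of reads, 27 of 481 sites were called lower and 2 higher, and with a minimum scaled to depth, 50 of 161 and 4. With 1 *prp18Δupf1Δ* library left out, 29 (replicate 1), 30 (replicate 2) or 26 (replicate 3) sites were lower, and 2 were higher when *prp18Δupf1Δ* replicate 3 or either of the first 2 *upf1Δ* replicates was dropped. FAnS of the libraries did not overlap between strains at 72 sites that were lower and 7 that were higher, where 18.8% and 24.4% of all alternative junctions did so.

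The sites called lower lay mostly deep in RPG introns. Of the 47, 42 were in RPGs, and 37 of these lay over 50 nt downstream of the annotated 5′SS. Intronic RPG sites were called lower at 40 of 91 tested and higher at 1, and exonic RPG sites lower at 2 of 37. In non-RPGs, 1 of 21 intronic sites was lower and 1 higher, and 4 of 30 exonic sites were lower and 2 higher. By distance, 19 of 38 intronic sites at 51–200 nt and 19 of 47 beyond 200 nt were called lower, against 1 of 17 at 1–10 nt. Distance and gene class went together. Of all sites found, 95 of 103 at 51–200 nt and 89 of 104 beyond 200 nt were in RPGs, against 27 of 42 at 1–10 nt. The parts of distance and gene class in these calls were not tested apart. None of the 14 tested sites at +4 was called, with a median log2 change of -0.11. Genes of the large and the small ribosomal subunit had 24 of 77 and 18 of 51 tested sites called lower. Of the 13 tested sites at -4, 1 was lower (*SRC1*) and 1 higher (*ATG38*).

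A second scale sets each junction against the unspliced reads of its intron. Against these, 110 of the 179 alternative 5′SS were lower in *prp18Δupf1Δ* and 0 were higher (edgeR, adjusted p under 0.05; 122 had an unadjusted p under 0.05, and DESeq2 called 97 lower), where 47.9% of all 1164 junctions, annotated ones included, were lower and 4.81% higher. Annotated junctions were called lower more often, at 217 of 278 (78.1%) against 61.5% of the alternative 5′SS, and alternative 3′SS less often (31.9%). The median log2 change was -2.87 for alternative 5′SS and -1.91 for annotated junctions. Of the 47 sites called lower in FAnS, 46 were also lower on this scale. A transcript cut at an intronic alternative 5′SS still crosses the annotated 5′SS and adds to its unspliced reads.

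**Figure D3:**
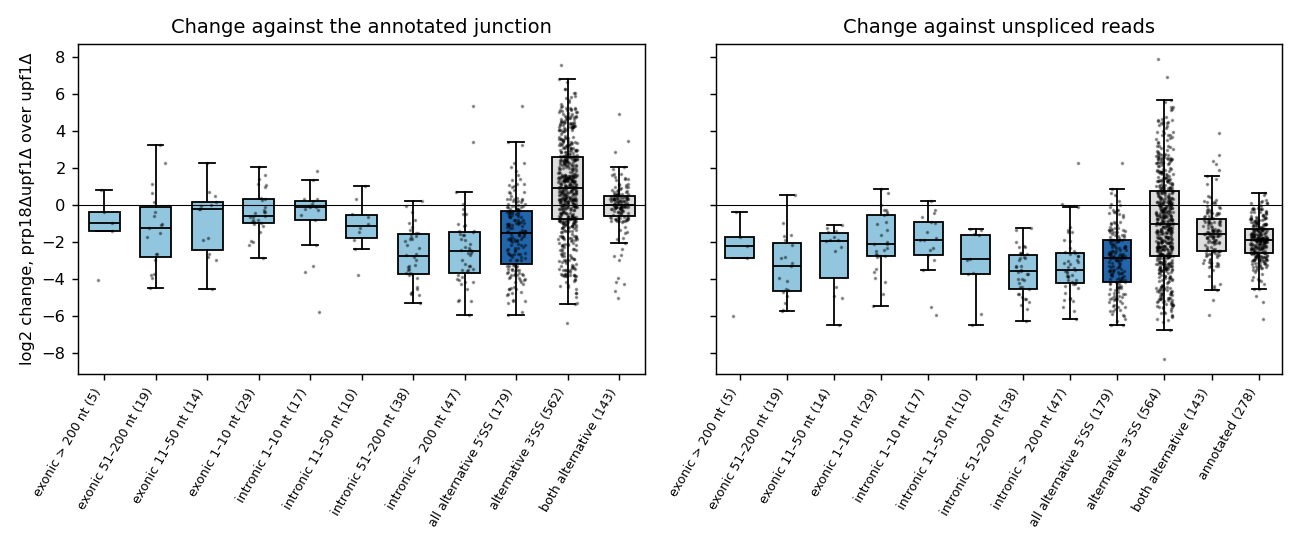
Log2 change in *prp18Δupf1Δ* over *upf1Δ* of each tested junction against the annotated junction (left) and against unspliced reads (right), with the number of junctions in parentheses; boxes show median and quartiles and points single junctions. Intronic sites at 51–200 nt and beyond 200 nt lie lowest on the left, with medians of -2.75 and -2.49, and those at 1–10 nt lie at -0.12.

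*RPS22B* +414 had the most reads of all sites and the largest FAnS in *prp18Δupf1Δ* among the 4 sites that rose. *RPS22B* encodes a protein of the small ribosomal subunit, and its second intron hosts the snoRNA SNR44. The site had 923, 631 and 653 reads in *prp18Δupf1Δ*, against 202, 238 and 263 in *upf1Δ*, and the strains did not overlap. The annotated junction had 2962, 1988 and 1417 reads in *prp18Δupf1Δ*, against 7475, 6525 and 6586 in *upf1Δ*. FAnS was 36.3 ± 8.45% in *prp18Δupf1Δ* and 3.45 ± 0.668% in *upf1Δ* (SD, n = 3 each), a log2 change of 3.39 ± 0.22 (SE, edgeR adjusted p = 2.23e-20). Against unspliced reads the site changed by -0.14 ± 0.39 (adjusted p = 0.787) and the annotated junction of the same intron by -3.53 ± 0.45 (adjusted p = 2.00e-05). Its junction leaves 2 bases of ambiguous placement, and 3269 of its 3443 gapped reads were aligned by STAR. The site, a GTAAGC, starts 69 nt after the end of SNR44 (chrXII:856710-856920), and use of it would keep the snoRNA in the mRNA together with an in-frame stop. The exonic site *RPS22B* -5, which begins with GC, had 1, 1 and 0 reads in *prp18Δupf1Δ* and 10, 5 and 5 in *upf1Δ*, and was not called (adjusted p = 0.238).

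A snoRNA also lies in the intron of *EFB1*, the gene of translation elongation factor 1B alpha. *EFB1* +230 starts 16 nt after the end of SNR18 (chrI:142367-142468). It had 12, 4 and 8 reads in *prp18Δupf1Δ*, against 1, 0 and 0 in *upf1Δ*. Relative to annotated reads this was a 58.4-fold ratio, with a counting interval of 9.52 to 2402 (95%, exact; adjusted p = 3.48e-06 by edgeR). The same intron had another site at +31 with 0 reads in *prp18Δupf1Δ* and 5, 1 and 4 in *upf1Δ* (adjusted p = 0.071). Over the 7 introns with a site and an annotated snoRNA, 4 sites lay downstream of the snoRNA, and the 2 of them that could be tested were these called sites. The other 9 sites lay upstream of or within the snoRNA and included 3 that could be tested, none of them called. This grouping was made after the values were seen.

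The other 2 sites called higher rested on few reads. *ATG38*, which encodes a subunit of the autophagy lipid kinase complex, had 5, 3 and 7 reads at -4 in *prp18Δupf1Δ*, against 2, 0 and 3 in *upf1Δ*. Its FAnS was 5.33 ± 2.43% in *prp18Δupf1Δ* and 1.12 ± 1.03% in *upf1Δ* (adjusted p = 0.0255), a call lost in 10 of its alternative settings. *BET4*, which encodes a subunit of a protein prenyltransferase, had 3, 2 and 2 reads at -14 in *prp18Δupf1Δ*, against 2, 2 and 3 in *upf1Δ*, while its annotated junction had 51, 35 and 21 in *prp18Δupf1Δ*, against 213, 150 and 160 in *upf1Δ* (adjusted p = 0.0372). It was named because only 4 sites were called higher.

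In *RPL30*, 1 of 2 neighbouring sites was lower and the other was not called. Its protein binds its own pre-mRNA next to the 5′SS, and its annotated 5′SS, GTCAGT, is itself unusual. At +4, where the sequence reads GTATAA, 129, 87 and 72 reads were found in *prp18Δupf1Δ*, against 140, 168 and 201 in *upf1Δ*. FAnS there was 0.553 ± 0.0482% in *prp18Δupf1Δ* and 0.592 ± 0.0939% in *upf1Δ*, with overlapping libraries (adjusted p = 0.879). At +6, where it reads ATAACA, 1, 0 and 0 reads were found in *prp18Δupf1Δ*, against 46, 24 and 48 in *upf1Δ*. The +6 site was 72.4-fold lower relative to annotated reads, with a counting interval of 12.8 to 2885 (adjusted p = 2.60e-08). The +6 site also occurred joined to alternative 3′SS, in 5 junctions with 13, 10 and 6 reads in *prp18Δupf1Δ* and 46, 59 and 58 in *upf1Δ*. *RPL30* +4 was named beside +6 after its values were seen.

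Other called decreases were found in ribosomal protein introns. *RPS26A* had 3 such sites. Its +199 site, a GTATGC, had 2, 0 and 0 reads in *prp18Δupf1Δ*, against 22, 20 and 24 in *upf1Δ*, which is 44.2-fold lower with a counting interval of 11.8 to 373 (adjusted p = 1.54e-09). The sites at +250 and +255 had 0, 2 and 1 and 2, 1 and 0 reads in *prp18Δupf1Δ*, against 13, 13 and 8 and 10, 5 and 9 in *upf1Δ* (adjusted p = 1.93e-05 and 0.000465). Reads of the annotated *RPS26A* junction did not decrease against unspliced reads (log2 change 0.63 ± 0.38, adjusted p = 0.177). Its paralog *RPS26B* had 1, 0 and 1 reads at +234 in *prp18Δupf1Δ*, against 15, 10 and 28 in *upf1Δ* (adjusted p = 2.09e-05), but 3 of its 75 gapped reads were from STAR. Per the methods, when the aligners placed a read at different loci with equal scores, 1 of the alignments was taken at random, so values of near-identical paralogs are uncertain.

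*RPL42A* +127 had 1, 3 and 0 reads in *prp18Δupf1Δ*, against 31, 33 and 31 in *upf1Δ* (log2 FAnS change -3.92 ± 0.58, adjusted p = 8.51e-08). *RPL2B* +246 had 3, 5 and 3 reads in *prp18Δupf1Δ*, against 40, 49 and 66 in *upf1Δ* (-3.27 ± 0.44, adjusted p = 7.41e-09). *RPL33B* +134, another GTATGA, had 1, 3 and 3 in *prp18Δupf1Δ*, against 32, 29 and 25 in *upf1Δ* (-2.64 ± 0.54, adjusted p = 6.69e-05). In these 3 genes of the large subunit every *prp18Δupf1Δ* library was below every *upf1Δ* library. *RPL26B* +297 had 2, 1 and 0 reads in *prp18Δupf1Δ* and 4, 9 and 16 in *upf1Δ* (adjusted p = 0.00744). It lost its call without *prp18Δupf1Δ* replicate 3 (adjusted p = 0.0781), without *upf1Δ* replicate 3 (0.0657) and with DESeq2 (0.0555). Of the 41 tested sites with no read in *prp18Δupf1Δ*, 15 were called lower, by at least 1.74-fold to 6.10-fold when 3 reads over that strain are taken as its limit. At an unchanged FAnS these 41 would have had 1.29 to 18.3 reads there, with a median of 4.11.

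**Figure D4:**
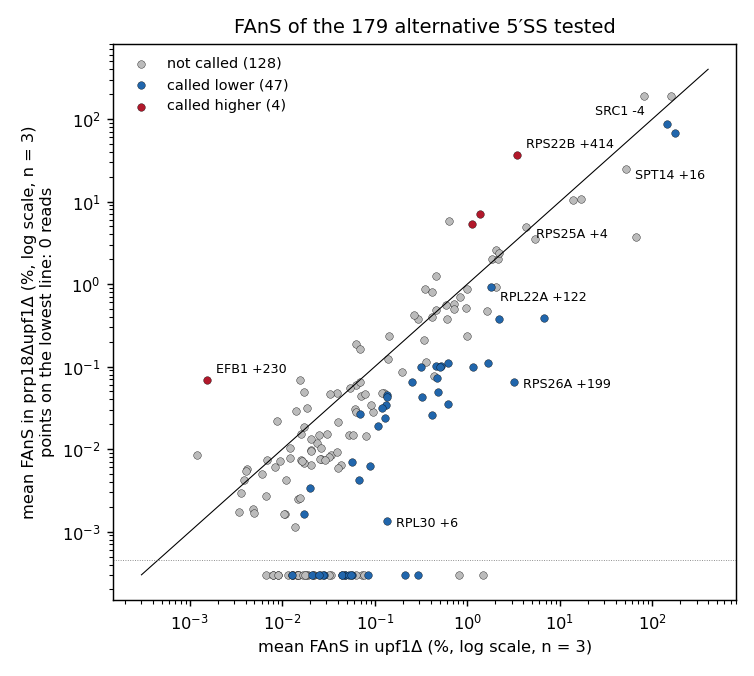
Mean FAnS of each of the 179 tested sites in *prp18Δupf1Δ* (vertical) and in *upf1Δ* (horizontal), in percent on log scales, with equality as the diagonal and sites without reads in *prp18Δupf1Δ* on the lowest line. The 47 sites called lower lie below the diagonal and the 4 called higher above it, with *RPS22B* +414 far from the others.

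The paralogs *RPL22A* and *RPL22B* encode near-identical forms of a large-subunit protein, which lowers splicing of the *RPL22B* pre-mRNA. At *RPL22A* +122 there were 90, 69 and 68 reads in *prp18Δupf1Δ*, against 165, 289 and 267 in *upf1Δ*. FAnS there was 0.933 ± 0.129% in *prp18Δupf1Δ* and 1.80 ± 0.282% in *upf1Δ* (log2 change -0.96 ± 0.28, adjusted p = 0.00532). The call was lost with DESeq2 (adjusted p = 0.177), with limma (0.136) and with no quality filter (0.072). At +71 of the same intron there were 53, 22 and 28 reads in *prp18Δupf1Δ*, against 49, 68 and 47 in *upf1Δ*, with overlapping FAnS (-0.04 ± 0.32, adjusted p = 0.943). The +122 site was lower in every library of *prp18Δupf1Δ* and the +71 site was not, though both begin GTACG, and the difference between them was not tested. *RPL22A* had 3 more sites with 1 or 2 gapped reads each. *RPL22B* +64, a GTTTGT, had 44, 38 and 26 reads in *prp18Δupf1Δ*, against 169, 329 and 317 in *upf1Δ*. Its FAnS was 10.3 ± 1.75% in *prp18Δupf1Δ* and 13.8 ± 4.22% in *upf1Δ* and overlapped (adjusted p = 0.314), while against unspliced reads it fell by 2.64 ± 0.39 on the log2 scale (adjusted p = 5.36e-05). The annotated *RPL22B* junction fell on that scale by 2.28 ± 0.41.

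Single sites at +4 were not called. *RPS25A* +4 was the site with the second most reads, with 385, 222 and 163 in *prp18Δupf1Δ* and 272, 211 and 259 in *upf1Δ*. *RPS25A* encodes a protein of the small subunit, and its intron does not lie between coding exons. FAnS was 4.95 ± 0.284% in *prp18Δupf1Δ* and 4.25 ± 0.418% in *upf1Δ*, a log2 change of 0.22 ± 0.21 (adjusted p = 0.470). All 3 *prp18Δupf1Δ* libraries lay above the *upf1Δ* libraries there, without passing the test, and under TMM scaling the direction turned. *SAC6* +4 and *TUB3* +4, in the genes of fimbrin and alpha-tubulin, likewise had FAnS of 2.60 ± 0.742% and 2.01 ± 0.178% in *prp18Δupf1Δ*, against 2.04 ± 0.502% and 2.15 ± 1.22% in *upf1Δ*. Neither was called (adjusted p = 0.539 and 0.891), and both were named after their values were seen.

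*SRC1* -4 had a use of the same order as its annotated site. *SRC1* encodes an inner nuclear membrane protein whose 2 isoforms arise from these overlapping sites, GCAAGT and GTGAGT. The -4 site had 117, 75 and 54 reads in *prp18Δupf1Δ*, against 159, 115 and 135 in *upf1Δ*. FAnS was 87.6 ± 26.4% in *prp18Δupf1Δ* and 144 ± 17.1% in *upf1Δ* (log2 change -0.80 ± 0.29, adjusted p = 0.0254), a call lost in 10 of its alternative settings. Without *prp18Δupf1Δ* replicate 1 the change was -0.53 (adjusted p = 0.226). The junction has 2 bases of ambiguous placement, and 55 of its 827 gapped reads were from STAR, so the level rests on the BBMap alignments. *SRC1* +4 had 3 reads in each strain. Exonic sites with other first bases had 29.2% of their 1334 gapped reads from STAR, against 85.9% over all sites. *SRC1* -4 alone held 827 of the 1334, so this low share rests largely on that site.

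**Figure D5:**
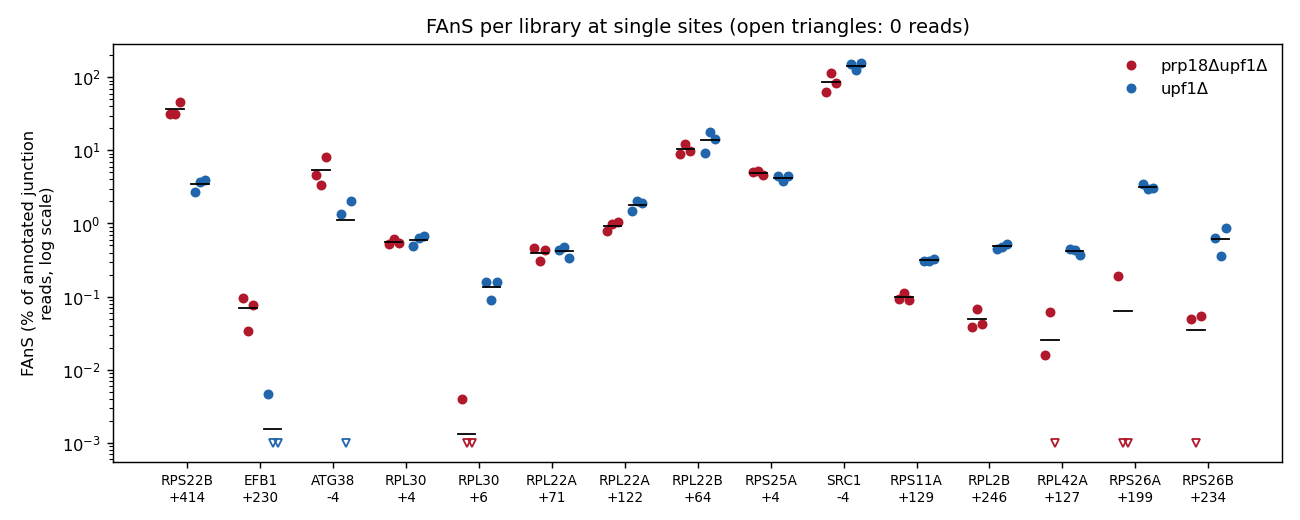
FAnS in percent of annotated junction reads, on a log scale, for each library at 15 alternative 5′SS, with *prp18Δupf1Δ* left of *upf1Δ* at every site and lines for the means; open triangles mark libraries with 0 reads. *RPS22B* +414, *EFB1* +230 and *ATG38* -4 are higher in *prp18Δupf1Δ*, and at *RPL30* +6 and *RPS26A* +199, 2 of 3 *prp18Δupf1Δ* libraries had 0 reads.

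Of the 30 sites that begin with GC, 16 were intronic and 14 exonic. *RPS11A* +129, a GCATGT in an intron whose annotated 5′SS is GTATGA, had 9, 12 and 9 reads in *prp18Δupf1Δ*, against 33, 61 and 74 in *upf1Δ* (log2 FAnS change -1.67 ± 0.40, adjusted p = 0.000761). *RPL29* +44, a GCAGGT, had 5, 0 and 4 in *prp18Δupf1Δ*, against 13, 20 and 16 in *upf1Δ* (-1.87 ± 0.56, adjusted p = 0.00665). The *RPL29* call was lost without *prp18Δupf1Δ* replicate 2 (adjusted p = 0.0904) and without replicate 1 of both strains (0.1). It was also lost with DESeq2 (0.0664), with limma (0.0855) and with no quality filter (0.0859). *SPT14* +16, a GCATGT in the gene of a GPI anchor synthesis enzyme, had 1, 1 and 0 in *prp18Δupf1Δ*, against 36, 34 and 39 in *upf1Δ*. Its annotated junction had 2, 4 and 1 reads in *prp18Δupf1Δ*, against 53, 79 and 90 in *upf1Δ*. FAnS at *SPT14* +16 was therefore not called (adjusted p = 0.661), while both junctions fell against unspliced reads, with log2 changes of -5.86 ± 0.86 at the alternative and -5.26 ± 0.65 at the annotated site (adjusted p = 5.36e-05 and 1.57e-05).

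Apart from *SRC1* -4, the exonic sites with the most reads were not called against their annotated junctions. *HMRA1* -89, in the silent copy of the mating-type gene a1, had 24, 68 and 65 reads in *prp18Δupf1Δ* and 25, 58 and 71 in *upf1Δ*, with overlapping FAnS (adjusted p = 0.142). BY4741 is a MATa strain, and reads of the active a1 gene cannot be told from those of this copy. *LSM2* -56, in the gene of an RNA-binding protein of U6 snRNP, had 3, 14 and 4 reads in *prp18Δupf1Δ* and 21, 33 and 40 in *upf1Δ* (log2 FAnS change -1.03 ± 0.43, adjusted p = 0.0620). Its FAnS did not overlap between strains. It was called lower with a minimum of 20 reads (edgeR adjusted p = 0.0347) and among junctions with a STAR read (0.0469). The same held without *prp18Δupf1Δ* replicate 2 (0.0281) and with TMM scaling (0.0003). *RPL27B* -4 had 14, 11 and 7 reads in *prp18Δupf1Δ* and 33, 20 and 27 in *upf1Δ* (adjusted p = 0.186), and *RPL27B* -13 had 4, 3 and 2 in *prp18Δupf1Δ* and 10, 2 and 3 in *upf1Δ* (adjusted p = 0.956). *GPI15* -36, a GTACGT that keeps the frame, had 10, 2 and 5 reads in *prp18Δupf1Δ* and 10, 11 and 18 in *upf1Δ* (adjusted p = 0.855).

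In 2 introns that were rarely spliced at their annotated sites, alternative sites reached or passed the annotated level. *REC107*, a meiotic recombination gene, had 6, 9 and 13 reads at -142 in *prp18Δupf1Δ* and 24, 42 and 21 in *upf1Δ*, beside 6, 6 and 4 annotated reads in *prp18Δupf1Δ* and 17, 18 and 20 in *upf1Δ* (adjusted p = 0.879). *GCR1*, the gene of a transcription factor of glycolytic genes, had 2, 3 and 6 reads at +5 in *prp18Δupf1Δ* and 3, 12 and 10 in *upf1Δ*, beside 1, 1 and 9 annotated reads in *prp18Δupf1Δ* and 4, 12 and 15 in *upf1Δ* (adjusted p = 0.786). *GCR1* +56 had 1, 1 and 0 reads in *prp18Δupf1Δ* and 11, 13 and 21 in *upf1Δ* (adjusted p = 0.0257). It lost its call without *prp18Δupf1Δ* replicate 3 (adjusted p = 0.845), with DESeq2 (0.0536), with limma (0.203) and in further settings.

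Of the 3 introns with 10 sites each, all encode ribosomal proteins and all carried fewer alternative reads in *prp18Δupf1Δ*. Summed over its sites, *RPS23B* had 21, 18 and 5 reads in *prp18Δupf1Δ*, against 44, 41 and 47 in *upf1Δ*. *RPS10A* had 3, 11 and 8 in *prp18Δupf1Δ*, against 42, 39 and 67 in *upf1Δ*. *RPL37A* had 4, 2 and 0 in *prp18Δupf1Δ*, against 18, 4 and 25 in *upf1Δ*, and its strains overlapped. Relative to annotated reads, *RPL37A* had 0.0341 ± 0.0312% in *prp18Δupf1Δ* and 0.197 ± 0.128% in *upf1Δ* (SD, n = 3 each). *RPS23B* had 0.0670 ± 0.0360% in *prp18Δupf1Δ* and 0.153 ± 0.0150% in *upf1Δ*. *RPS10A* had 0.0322 ± 0.0198% in *prp18Δupf1Δ* and 0.155 ± 0.0439% in *upf1Δ*. The sites ran over -139 to 217 nt in *RPS23B*, -159 to 298 nt in *RPS10A* and -4 to 221 nt in *RPL37A*, and 4 of the 11 that could be tested were called lower and 0 higher in FAnS, beside 26.3% lower over all tested alternative 5′SS.

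Gene lists were described by counts, to be read beside the 26.3% of tested alternative 5′SS called lower and 2.23% called higher, and 10.7% and 21% of all alternative junctions. Of 33 sites in genes known for regulated splicing of their own transcripts (*RPL30*, *RPL22A*, *RPL22B*, *RPL28*, *RPS9A*, *RPS9B*, *RPS14A*, *RPS14B*, *SRC1*, *SUS1* and *YRA1*), 14 were tested, 5 were lower and 0 higher. Among these, *RPS14B* +317 had 0, 4 and 6 reads in *prp18Δupf1Δ* and 29, 46 and 44 in *upf1Δ* (adjusted p = 5.39e-05), but 0 of its 168 gapped reads came from STAR, and it was named after its values were seen. Of 16 sites in snoRNA host genes, 6 were tested, 0 were lower and 2 higher. Of 4 sites in the spliceosome genes *MUD1*, *LSM2* and *LSM7*, 1 was tested and was not called.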

How the data were processed

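Stranded mRNA libraries of 3 *prp18Δupf1Δ* and 3 *upf1Δ* samples were analysed from the deposited tables, 1 per library. Per the labels and methods, the authors trimmed reads with cutadapt 1.18, aligned them to R64 with STAR 2.7.0d and BBMap, and kept the best alignment of each read. The deposited junction counts are raw read counts, without normalization or pooling. For unspliced transcripts the tables hold an estimated count per intron, which the authors made by halving the reads across its 5′SS and 3′SS. The deposited SE (junction reads over annotated plus unspliced reads) of annotated junctions is a fraction, and the SE and FAnS of alternative junctions are each a ratio, which the authors made from these counts. FAnS followed from the counts in 12550 of 12550 entries. The authors placed ambiguous junctions at the 5′SS most like GUAUGU, which can move a site by the number of ambiguous bases given. All 5274 junctions matched R64 in both splice sites, and coordinates count from 1.

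The filters were applied here to the largest value over the 6 tables. At the thresholds, 6 junctions had an upstream overhang of exactly 10 bp, with 9 bp as the highest outside, and 1 a downstream overhang of exactly 40 bp, with 39 bp outside. Junctions that failed the mismatch filter alone numbered 6. Counts were tested with edgeR 4.0.16 (quasi-likelihood, library terms, kind of count by strain, no scaling, at least 6 gapped reads, Benjamini-Hochberg over all junctions tested) in R 4.3.3, with DESeq2 1.42.0 and limma 3.58.1 as alternatives. The SE of a log2 change was derived from the edgeR test, as the absolute change over the square root of its F statistic. It is thus not a measure of spread apart from that test. Sums over sites were compared by all 20 assignments of libraries with scipy 1.17.1. On simulated counts for 883 junctions, the FAnS test found 11% of 2-fold and 31% of 4-fold changes and called 0 of 683 unchanged ones. On those for 1162 junctions, the unspliced test found 9% and 42.4% and called 0 of 963. These counts were drawn with 1 dispersion for all junctions (0.0161 and 0.0694), and annotated or unspliced counts were kept as observed. Real junctions can vary more, so the rate of false calls in the real data was not measured.

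Sites named are the 4 with most reads in each position and base group, the 5 with the highest FAnS, the sites called higher and the 10 lowest of those called lower (non-overlapping, at least 20 reads), the introns with most sites, and sites of *SRC1*, *RPL22A* and *RPL22B*. The sites, groups and lists were chosen with earlier results of these data known. Intervals cover counting error only.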

Additional observations from a re-analysis of the deposited data

Results flagged for a closer look

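Intronic alternative 5′SS of 2 distance groups moved in opposite directions. At 51–200 nt the reads per 1000 annotated reads stood at 0.303 times the *upf1Δ* level in *prp18Δupf1Δ*, lower in every library, and beyond 200 nt they stood at 1.65 times, higher in every library. The second group was lower, at 0.266 times, without *RPS22B* +414. The difference between the groups was not tested.

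Within 3 introns, the FAnS of 2 sites lay in opposite directions between strains with no overlap of the libraries. In *RPS22B*, +414 was higher in *prp18Δupf1Δ* (log2 FAnS change 3.39), and -5 stood at -1.45 and was not called (edgeR adjusted p = 0.238). In *EFB1*, +230 was higher (5.34), and +31 had a fitted value of -3.81, which is no bound, with 0 reads in *prp18Δupf1Δ*, and was not called (adjusted p = 0.071). In *RPS23B*, +105 was lower (-1.56), and -55 stood at 2.28, with 5 reads in *prp18Δupf1Δ* and 1 in *upf1Δ*, and was not called (adjusted p = 0.165). The difference between the sites of an intron was not tested.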

How the results depend on the processing

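The count of alternative 5′SS called lower in FAnS, 47, was 25 with DESeq2, 93 with TMM scaling, 27 with no minimum of reads, 31 with no quality filter, 24 without ambiguous junctions, 19 without replicate 1 of both strains, and 26 to 46 with 1 library left out. The 4 called higher became 2 with DESeq2, TMM scaling, no minimum, no ambiguous junctions or without replicate 1 of both strains, and 2 to 4 with 1 library left out. The quality filter, and with it the reads of the junctions it removes, is part of how the sites were chosen. TMM scaling moved the median of all alternative junctions by -0.83 on the log2 scale, and *RPS25A* +4 then fell by 0.59. Against unspliced reads, 110 sites were lower, and 53 of 70 with at least 20 reads. With 1 library left out, 0 or 1 site was higher there, the 1 without *prp18Δupf1Δ* replicate 2. The replicate numbers correlated at 0.305, 0.139 and 0.065 and were taken as numbers only. Replicate 1 of *prp18Δupf1Δ* correlated at -0.247 and -0.094 with replicates 2 and 3 of *upf1Δ*. Replicate 1 of *upf1Δ* correlated at -0.159 and -0.175 with replicates 2 and 3 of *prp18Δupf1Δ*. Whether the first replicates of both strains were handled together is not given in the sources used here. With the replicate block, 42 sites were lower and 3 higher in FAnS, and 112 lower against unspliced reads, and replicate 3 of *prp18Δupf1Δ* correlated better with replicate 2 of *upf1Δ* (0.130) than with its own number.

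Over all, exonic and intronic sites and sites with the same or other first bases, reads per 1000 annotated reads kept their direction in the settings run. Their log2 ratio was -0.18 for all sites, -0.40 for exonic, -0.13 for intronic, -0.07 for sites with the same and -0.97 for sites with other first bases. Without ambiguous junctions these were -0.78, -0.23, -0.89, -0.72 and -1.57. Without the site with the most reads they were -0.88 for all, -1.02 for intronic, -0.86 for the same and -1.52 for other first bases. Over annotated plus unspliced reads they were -0.275 for all, -0.23 for intronic and -0.17 for the same first bases, and with no quality filter -0.73 for other first bases. The log2 ratio of exonic over intronic reads was -0.26 and became 0.63 without *RPS22B* +414, a setting chosen after seeing the data, and that of same over other first bases was 0.90 and became 0.10. Of 559 alternative values of named sites in FAnS, 511 kept their call and direction, 39 lost and 8 gained a call. *SRC1* -4, *ATG38* -4 and *GCR1* +56 lost their calls most often. Most sites had few reads, and 127 had 1 gapped read.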
